A study of Mus musculus with 12 samples.

Results

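Bone marrow-derived macrophages from wild-type mice, cultured to day 5 in 2% CMG, a source of the growth factor M-CSF, were sequenced untreated or after 3 h with lipopolysaccharide (LPS) at 100 ng/mL, with 3 libraries in each group. The response described here was chosen by rule and not by any measured change: the 6 macrophage libraries were compared over every gene that reached 1 FPKM in at least 3 of all 12 libraries of the series, which left 11335 of 54532 listed genes. The other 6 libraries are osteoclasts made from the same kind of culture with RANKL, untreated or given the same LPS for 3 h, and they enter here as the other cell type, in the filter and in the shared estimate of the spread. All 4 groups carried the wild-type genotype and the same M-CSF source, and the labels do not say whether the libraries of a group came from separate mice or cultures, so the p-values measure the spread between these libraries, which may be technical. FPKM is the number of sequenced fragments per kilobase of gene, scaled per library by the authors, and differences are given on the log2(FPKM + 1) scale unless a fold of mean FPKM is named, since the added 1 understates the change of low genes.

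LPS is the lipid-anchored sugar of the outer membrane of Gram-negative bacteria. In macrophages it is handed by CD14 to the TLR4 and MD-2 receptor, which signals through MYD88 to NF-kB and the MAP kinases, and through TRIF to IRF3 and the interferon beta gene. Secreted interferon beta then acts back on the cells through IFNAR1 and IFNAR2, JAK kinases and transcription factors of the STAT and IRF families, which switch on the interferon-stimulated genes. The first wave of inflammatory messengers is cut short by induced inhibitors, such as the IkB proteins, A20, tristetraprolin and the SOCS proteins.

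The 6 libraries held between 15945676 and 19051934 reads assigned to genes, and the first principal component, which separated untreated from treated libraries, carried 95.4% of their variance. Of the 10 macrophage markers all were expressed, led by the lysozyme gene Lyz2 at 11333 and 13002 FPKM on average without and with LPS. The T cell markers summed to 2.88 to 3.30 FPKM untreated and 4.04 to 5.06 FPKM with LPS. Among them Cd3d, Cd3e, Cd3g, Cd8a and Cd2 were at 0 in all 6 libraries, Cd28 averaged 2.61 and 1.66 FPKM, and the kinase gene Lck rose from 0.00484 to 2.19 FPKM. The dendritic cell markers summed to 0.286 to 0.301 and 5.37 to 6.25 FPKM, of which Xcr1 alone made 0.150 and 5.31 FPKM on average, the endothelial markers to 2.51 to 2.88 and 4.79 to 4.89, and the megakaryocyte markers to 5.51 to 6.39 and 3.10 to 5.64. The osteoclast markers summed to 16.3 to 20.5 FPKM in untreated and 24.7 to 29.0 FPKM in treated libraries, the neutrophil markers to 5.70 to 8.57 and 6.88 to 16.4, the B cell markers to 18.9 to 19.7 and 16.8 to 20.3, and the stromal markers to 33.1 to 42.4 and 31.4 to 37.8 with Dcn at 0. Acp5, the tartrate-resistant acid phosphatase of osteoclasts, rose as well, reading 1.72, 0.775 and 0.354 FPKM untreated and 14.9, 12.1 and 16.7 FPKM with LPS. Of the other osteoclast markers, Mmp9 and Ocstamp were called higher and Nfatc1, Atp6v0d2, Itgb3 and Dcstamp lower, Nfatc1 from a mean of 7.04 to 4.66 FPKM and Atp6v0d2 from 3.98 to 2.55 FPKM. The part of these other cells in the results was not tested.

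LPS for 3 h changed most of the tested genes, and on the deposited scale the largest movements were upward. Of 11335 genes, 7921 (69.9%) passed the test (limma, Benjamini-Hochberg adjusted p under 0.05 over all genes tested), 4168 of them higher (36.8%) and 3753 lower (33.1%). For 8392 genes (74.0%) the treated values lay all above or all below the untreated ones. A called difference of at least 1 on the log2 scale was found upward for 1365 genes (12%) and downward for 718 (6.33%). At a size of at least 3 the counts were 277 up and 26 down, and 80 genes rose by at least 5. The median over all genes was 0.02, with the middle of the distribution between -0.35 and 0.39. The counts at a size of at least 1 depend on the scale. They were 1017 up and 2808 down after rescaling each library to the same total (TPM). With 0.1 added in place of 1 they were 1572 and 1338, and with limma voom on reads recovered from the FPKM values 1626 and 1399.

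The raised genes took over a large part of the measured RNA. The 1365 genes raised by at least 1 held 6.81, 6.84 and 6.91% of the summed FPKM in the untreated libraries and 33.0, 32.2 and 32.7% with LPS. The 277 genes raised by at least 3 went from between 0.775 and 0.793% to between 19.0 and 19.4%, while the 718 genes lowered by at least 1 went from between 4.14 and 4.20% to between 0.692 and 0.747%. These shares describe genes picked by the same difference. In bulk RNA, more cells carrying a transcript and more transcript per cell cannot be told apart.

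Small changes depend on the scale. The authors' scale sets the typical gene near no change, whereas rescaling each library to the same total (TPM) moved the median of all genes to -0.55, and quantile normalization moved it to -0.14. The share of higher genes among all calls was 52.6% on the deposited scale, 18.5% with TPM and 37.0% with quantile-normalized values. Of all tested genes, 15.9% were called higher and 70.0% lower with TPM, and 26.9% and 45.8% with quantile-normalized values, and counts of the gene lists under these scalings stand beside these shares. All 277 genes raised by at least 3 stayed called higher under both, as did 1360 and 1364 of the 1365 raised by at least 1, and 718 and 716 of the 718 lowered by at least 1 stayed called lower. Of the 5838 called genes that moved by less than 1, 1443 were called with the opposite sign with TPM and 700 with quantile normalization.

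**Figure D1:**
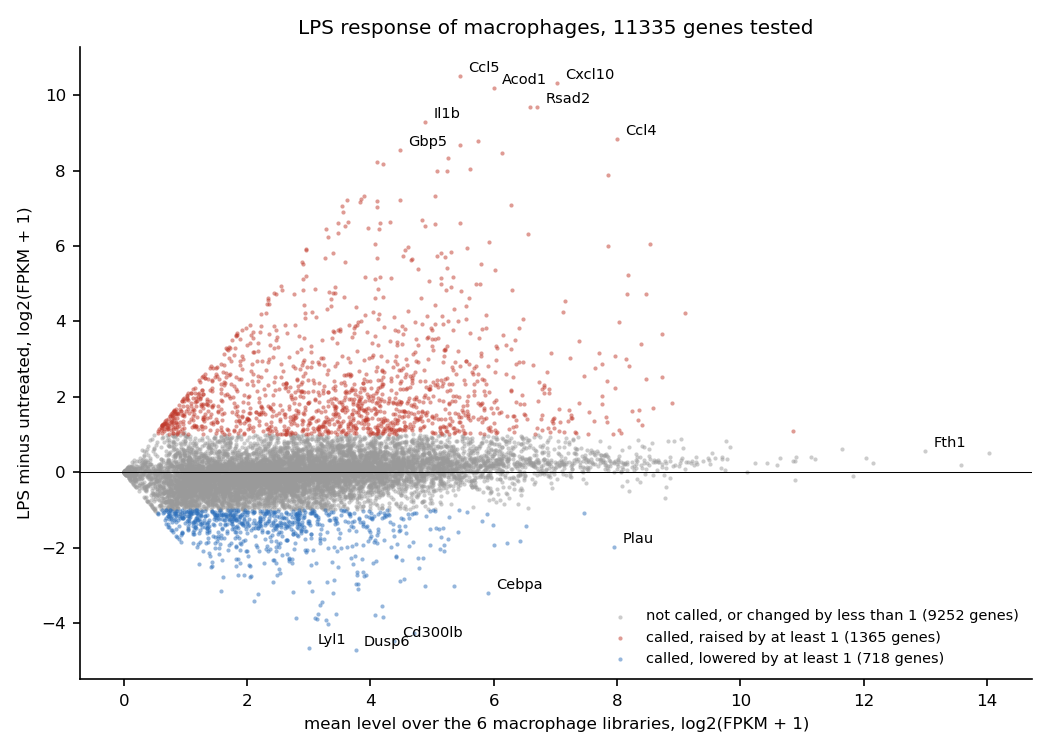
Each point is 1 of 11335 tested genes, with its mean level over the 6 macrophage libraries on the x axis (log2(FPKM + 1)) and the difference of LPS minus untreated on the y axis (same scale). The 1365 genes called and raised by at least 1 (red) reach above 10, and the 718 called and lowered by at least 1 (blue) stay above -5; the diagonal edges are genes near 0 FPKM in one of the groups.

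The filter itself favours genes that are high in some group. Of the tested genes, 458 passed only because of the treated macrophage libraries and 410 only because of the untreated ones, and 343 of the former were called higher and 301 of the latter lower. Counts over lists of genes that passed are therefore descriptions. The gene just inside the filter, Gm22362, had a third-highest value of 1.00 FPKM, and the gene just outside, A130077B15Rik, had 0.999 FPKM.

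The genes with the largest rise encoded chemokines, interferon-induced proteins, interleukin 1 and the itaconate enzyme. Ccl5 (ENSMUSG00000035042, chr11:83525778-83530518, GRCm38), a chemokine for T cells and monocytes, read 0.180, 0 and 0.281 FPKM untreated and 1703, 1610.2 and 1718 FPKM with LPS. Its log2 difference was 10.51 ± 0.17 (SE, 3 libraries a group; adjusted p = 2.1e-13), and the untreated level rested on 10 reads in 3 libraries. Cxcl10 (chr5:92346638-92348889), a ligand of CXCR3, read 2.09, 2.25 and 3.73 FPKM untreated and 4579.9, 4564 and 4805 FPKM with LPS, a difference of 10.33 ± 0.22. Acod1 (chr14:103046977-103056573), the mitochondrial enzyme that makes itaconate, went from a mean of 0.868 to 2184 FPKM, 2515-fold. In all 3 genes the treated libraries lay close together, and a lack of overlap with the untreated ones was a condition for choosing them.

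The other genes among the 12 highest were Ifit1 (9.69), Rsad2 (9.69), Il1b (9.28), Ccl4 (8.84), Cmpk2 (8.77), Socs3 (8.67), Gbp5 (8.55), Ifit2 (8.47) and Oasl1 (8.32), each given as a log2 difference with an SE of at most 0.22. Ifit1 and Ifit2 bind foreign RNA, Rsad2 is the antiviral enzyme viperin, and Cmpk2, its neighbour in the genome, is a mitochondrial nucleotide kinase. Il1b (chr2:129364570-129371139), the precursor of interleukin 1 beta, was at 0.226, 0.134 and 0.212 FPKM untreated and 733, 722 and 759 FPKM with LPS. Every adjusted p of these genes was at or below 5.3e-12. Cxcl10, Il1b and Oasl1 each overlap a gene on the opposite strand, and the sources used here do not say that counting used strand, so their reads cannot be told apart from those of the partner. In all, 47 of 193 genes checked for it have such a partner. The others that rose are Il1a, Il27, Gbp2, Cd274, Cxcl11, Usp18, Tnfaip2, Irf1, Slc7a2, Icam1, Dusp1, Irf7, Gm13822, Zfp36, Ppp1r15a, Tap1, Nfkb2, Ch25h, Ccnd2, Cdkn1a, Acp5, Myd88, Junb, Irak2, Zc3h12c, Irak3, Cebpb and Hif1a. Those that fell are P2ry12, Irak4, Bcl2, Ptgs1, Zfp36l1, Lss, Ccnd1, Cx3cr1, Zfp36l2, Cebpa, Lpar6, Plk3, Irf2bp2 and Lyl1, and those that did not pass the test are Csf1r and Ftl1.

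The 12 lowest genes were led by Dusp6, Lyl1, Cd300lb and Id1. Dusp6 (chr10:99263231-99267489), a phosphatase that switches off ERK, fell from 73, 70.7 and 63 FPKM to 1.5, 1.65 and 1.77 FPKM, a log2 difference of -4.73 ± 0.07 (adjusted p = 1.2e-13) and 42-fold lower in mean FPKM. Lyl1 (chr8:84701457-84704715), a blood-forming basic helix-loop-helix factor, fell from 39.5, 42.8 and 36.7 FPKM to 0.435, 0.633 and 0.751 FPKM. Cd300lb (chr11:114922781-114934386), an activating receptor of the CD300 family, read 102, 102 and 91.3 FPKM untreated and 2.77, 4.39 and 3.24 FPKM with LPS. Id1 (chr2:152736251-152737410), an inhibitor of basic helix-loop-helix factors, read 124, 118 and 100.1 FPKM untreated and 4.93, 5.20 and 4.72 FPKM with LPS, 23-fold lower with LPS. In all 4 genes every treated library lay below every untreated one, which was a condition for choosing them.

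Other genes among the 12 lowest were Lhfpl2 (-4.02), the corepressor Irf2bp2 (-3.93), 1700017B05Rik (-3.89), the CXCL12 receptor Cxcr4 (-3.86), the kinase Plk3 (-3.86), the Rab3 exchange factor Rab3il1 (-3.79) and the noncoding gene F630028O10Rik (-3.76), as log2 differences. The scale bounds a fall, since log2(FPKM + 1) cannot go below 0.

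**Figure D2:**
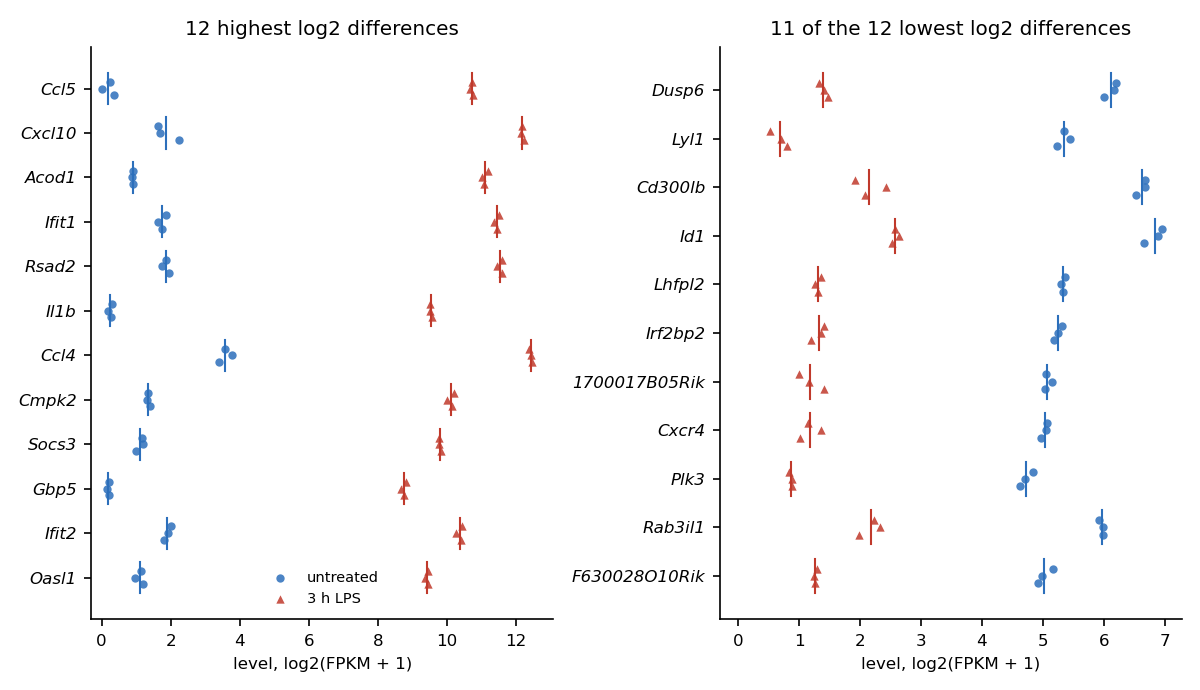
Level in each of the 6 macrophage libraries, log2(FPKM + 1), for the 12 genes with the highest (left) and 11 of the 12 with the lowest (right) difference; blue circles are untreated, red triangles 3 h LPS, and bars the group means. The 3 libraries of a group sit close together. Treated and untreated libraries do not overlap in any of the 23 genes, which was a condition for choosing them.

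Promoters of these genes were read for known response motifs. The kappaB motif, bound by NF-kB, was searched as GGGANNTTCC; the interferon response motif (ISRE) as GAAANNGAAA; the AP-1 motif as TGANTCA; and the TATA motif as TATAAA, all on both strands of windows from 250 bases before to 50 bases after a RefSeq start (GRCm38.p6). The table held windows for 20 of these 23 genes and none for Ccl5, Ccl4 and Id1, which were not searched. Of the 20, Cxcl10, Ifit1, Rsad2, Gbp5, Ifit2 and F630028O10Rik held a kappaB or ISRE match. They are printed here, 250 bases up to the start and in the direction of the gene, because they are the windows, among those searched, that carry the letters of either pathway; capitals mark the kappaB and ISRE matches, which may lie on the opposite strand.
Cxcl10, chr5:92348890-92349139, minus strand: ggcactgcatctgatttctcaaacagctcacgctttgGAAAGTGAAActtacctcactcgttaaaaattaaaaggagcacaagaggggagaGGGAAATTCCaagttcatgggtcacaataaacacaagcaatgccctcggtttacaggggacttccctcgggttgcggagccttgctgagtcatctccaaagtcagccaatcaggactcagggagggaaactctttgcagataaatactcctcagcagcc
Ifit1, chr19:34640639-34640888, plus strand: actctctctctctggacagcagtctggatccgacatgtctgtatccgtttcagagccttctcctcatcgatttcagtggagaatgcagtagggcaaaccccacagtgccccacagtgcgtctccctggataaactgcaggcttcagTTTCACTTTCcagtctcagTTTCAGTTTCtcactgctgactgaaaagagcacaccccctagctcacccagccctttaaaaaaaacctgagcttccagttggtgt
Rsad2, chr12:26456453-26456702, minus strand: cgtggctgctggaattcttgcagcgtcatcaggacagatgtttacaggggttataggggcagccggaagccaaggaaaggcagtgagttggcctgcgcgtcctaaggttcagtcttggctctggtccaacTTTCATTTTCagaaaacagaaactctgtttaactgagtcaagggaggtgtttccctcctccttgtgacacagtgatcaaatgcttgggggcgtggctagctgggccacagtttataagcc
Gbp5, chr3:142496684-142496933, plus strand: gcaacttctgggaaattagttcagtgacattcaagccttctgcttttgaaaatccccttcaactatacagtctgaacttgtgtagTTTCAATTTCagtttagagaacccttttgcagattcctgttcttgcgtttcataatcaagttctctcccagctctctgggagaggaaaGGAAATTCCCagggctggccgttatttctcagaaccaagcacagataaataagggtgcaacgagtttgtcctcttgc
Ifit2, chr19:34550444-34550693, plus strand, 1 of its 2 windows: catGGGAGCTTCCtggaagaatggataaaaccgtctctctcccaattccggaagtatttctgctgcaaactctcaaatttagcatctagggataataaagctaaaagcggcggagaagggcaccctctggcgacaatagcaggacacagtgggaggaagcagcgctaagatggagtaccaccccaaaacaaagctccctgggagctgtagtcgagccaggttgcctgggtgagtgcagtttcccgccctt
F630028O10Rik, chrX:96239676-96239925, plus strand: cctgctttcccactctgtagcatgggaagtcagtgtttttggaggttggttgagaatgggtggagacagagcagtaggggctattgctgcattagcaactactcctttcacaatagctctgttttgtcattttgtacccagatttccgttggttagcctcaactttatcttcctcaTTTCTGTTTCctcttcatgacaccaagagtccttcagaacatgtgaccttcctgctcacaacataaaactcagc

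Cxcl10 held both motifs, an ISRE match starting 213 bases and a kappaB match starting 159 bases before the start. Ifit1 held a pair of ISRE matches, at -104 and -85. Rsad2 held an ISRE match at -120, Gbp5 an ISRE match at -165 with a kappaB match at -77, and Ifit2 a kappaB match at -247. F630028O10Rik, which fell, held an ISRE match at -74, so the letters alone do not go with one direction.

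Across all genes the shares of promoters with a match followed the size of the rise. Among the 277 genes raised by at least 3, 214 matched the table with 262 windows, of which 18.7% held an ISRE match and 6.11% a kappaB match. Among 1071 windows of genes raised by 1 to 3 the shares were 6.63% and 1.96%, among 690 windows of genes lowered by at least 1 they were 1.45% and 0.725%, and among all 10722 windows of tested genes 3.33% and 1.57%. AP-1 matches ran from 14.1% and 7.75% in the raised classes to 5.25% in all and 4.49% in the lowered genes. TATA matches ran in the same order, 19.1%, 10.6%, 7.04% and 5.36%. Windows of 1 gene and of gene families share sequence, so no test was made and a match describes the letters only.

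**Figure D3:**
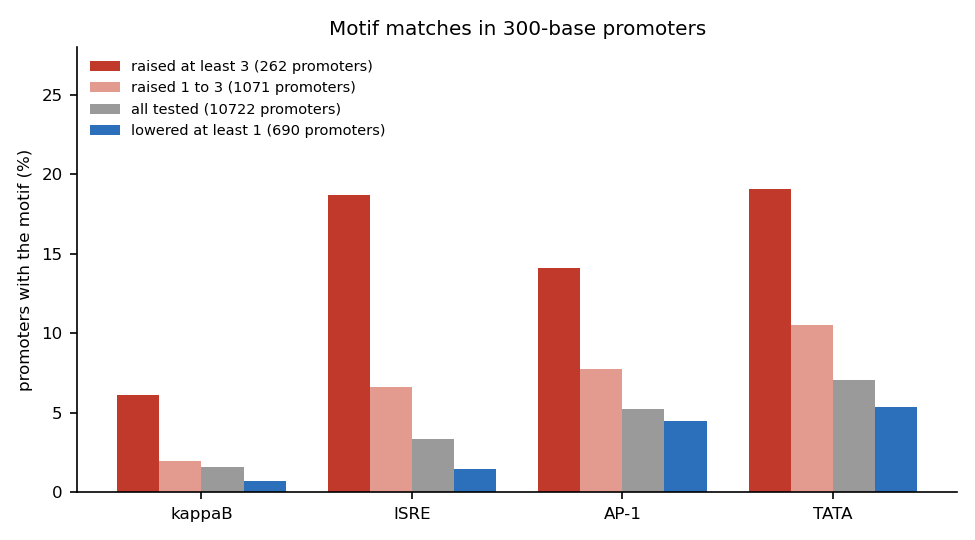
Percentage of 300-base promoter windows holding each of 4 motifs, by class of gene: raised by at least 3 (dark red), raised by 1 to 3 (light red), all tested (grey) and lowered by at least 1 (blue). For each motif the bar is highest in the genes raised by at least 3 and lowest in the lowered genes.

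Chemokines, the secreted proteins that draw in leukocytes, rose almost as a class. Of 21 tested, 19 rose and 1 fell, against 36.8% and 33.1% of all genes, with a median difference of 5.36 against 0.02. Beside Ccl5, Cxcl10 and Ccl4, the largest were Ccl3 (15.8, 14.3 and 12.2 FPKM untreated and 3447, 3636 and 3621 FPKM with LPS), Cxcl9, Cxcl2, Cxcl1 and Cxcl11. Ccl3 and Ccl4 draw monocytes and T cells, Cxcl1 and Cxcl2 draw neutrophils through CXCR2, and Cxcl9 and Cxcl10 share the receptor CXCR3. The annotation marks Cxcl11 as a polymorphic pseudogene, and whether its RNA gives a protein was not measured. Cxcl9 rested on 3 reads in the untreated libraries together and reached 147, 147 and 153 FPKM, a difference of 7.21. Cxcl1 went from 0.322, 0.227 and 0.216 FPKM to 116, 128 and 103 FPKM, 452-fold.

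The monocyte chemoattractants started from a higher level. Ccl2, the main ligand of CCR2, was at 70.3, 75 and 58.9 FPKM untreated and 1866, 1891 and 1720.0 FPKM with LPS, 26.8-fold up. Ccl7 read 47.6, 47.4 and 39.3 FPKM untreated and 2989, 3068 and 2949 FPKM with LPS, 67.1-fold up, and Ccl12 rose 45.3-fold from a mean of 9.16 FPKM. Ccl9, already abundant, rose 5.61-fold to 838 FPKM. The exceptions were Cxcl14, which fell to 46.7 from 77 FPKM (log2 difference -0.73), and Ccl6, at 51.8 and 52 FPKM, which did not pass (adjusted p = 0.97) but was called lower after rescaling to TPM and quantile normalization (-0.64 in both). Pf4, the platelet chemokine, rose by 0.50 and was lower after quantile normalization (-0.56) and rescaling to TPM (-0.15, not called).

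Cytokine genes were mostly raised, some of them from no reads before LPS. Of 27 tested, 23 rose and 2 fell, with a median of 3.61, and 19 and 5 did with TPM. Il12b, which encodes the p40 chain of interleukin 12, had 0 reads in each untreated library and 303, 308 and 281 FPKM with LPS, at least 4480-fold higher when the untreated level is set to 3 reads per library. Ifnb1, interferon beta, likewise went from 0 reads to 54, 72.6 and 54.1 FPKM, at least 346-fold higher, and Csf3, the granulocyte growth factor G-CSF, from 0 reads to 1.61, 2.51 and 2.32 FPKM, at least 23.2-fold. Il6 had 2 reads in all untreated libraries and reached 139.6, 127 and 134 FPKM. In all 4 genes every treated library lay above every untreated one, where 74.0% of all tested genes had no overlap in either direction.

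Tnf, in contrast, was expressed before treatment, at 57.3, 56.4 and 50.9 FPKM, and rose to 1453, 1611 and 1388 FPKM, 27-fold. Il1a read 0.0656, 0.0862 and 0.114 FPKM untreated and 310.2, 312 and 318 FPKM with LPS, and Il27, the p28 chain of interleukin 27, 0.845, 1.5 and 1.01 FPKM untreated and 568, 496 and 549.7 FPKM with LPS. Among inhibitory cytokines, Il1rn, the antagonist of the interleukin 1 receptor, rose 86.1-fold to 123 FPKM and Il10 rose 109-fold to 82.6 FPKM. Il15 rose 68.6-fold, Csf1, which encodes M-CSF itself, 11.8-fold and Il18 3.84-fold. The genes that fell were growth factors, Vegfa from 6.27 to 3.51 FPKM and Pdgfb from 49.8 to 40.1 FPKM.

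The interferon arm was raised from the signalling proteins down to the effectors. Of 36 interferon-stimulated antiviral genes all rose under the deposited scale and 35 under TPM and under quantile normalization, with a median of 3.73, and 15 of 15 interferon-inducible GTPases rose under each, with a median of 4.92. Mx1, a GTPase that blocks influenza viruses, read 1.96, 1.87 and 2.25 FPKM untreated and 921, 691 and 781 FPKM with LPS. Isg15, a ubiquitin-like modifier, went from 9.53, 9.51 and 9.56 FPKM to 835, 805 and 893 FPKM, 88.6-fold, and Usp18, which removes it, rose 127-fold. Ifit3 rose 161-fold, and Ifih1, the RNA sensor MDA5, 67.5-fold.

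The GTPases attack the vacuoles of intracellular bacteria and parasites. Gbp5 read 0.163, 0.109 and 0.169 FPKM untreated and 451, 403 and 433 FPKM with LPS, 2924-fold up, and Gbp2 1.47, 1.42 and 1.91 FPKM untreated and 436, 391 and 429 FPKM with LPS. Irgm1 rose 34.9-fold from 6.18 FPKM, and Iigp1 rose from 0.172 to 177 FPKM. Members of these families share near-identical sequence, so their separate levels are uncertain.

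Of 19 tested genes of interferon signalling, 18 were called higher and none lower as deposited, with a median of 1.86, and 16 higher and 2 lower after rescaling to TPM. The receptor chains Ifnar1 and Ifnar2 rose 2.08-fold and 2.13-fold, the kinase Jak2 17.6-fold, and Stat2 8.41-fold. Irf1 went from 7.63, 6.78 and 7.12 FPKM to 369, 376 and 379 FPKM, 52.2-fold, and Irf7, which amplifies interferon production, 17.3-fold. The steepest were the feedback inhibitors of the same pathway: Socs3 read 1.25, 1.28 and 1.01 FPKM untreated and 879, 871 and 907 FPKM with LPS and Socs1 0.223, 0.102 and 0.216 FPKM untreated and 187, 178 and 199 FPKM with LPS, 750.1-fold and 1042-fold up.

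The receptor that senses LPS fell, while some of its partners rose and others, such as Ticam1, Ticam2 and Irak1, did not pass the test. Tlr4 read 13.6, 14.4 and 15.2 FPKM untreated and 10.6, 9.26 and 9.75 FPKM with LPS, a difference of -0.50 ± 0.09 (adjusted p = 0.00023). Cd14, which presents LPS, read 102, 108 and 118 FPKM untreated and 763, 764 and 811 FPKM with LPS, 7.15-fold up. The adapter Myd88 rose 7.32-fold, and Map3k8, the kinase TPL2 upstream of ERK, 30.7-fold from 1.97 FPKM. Ly96, the MD-2 chain, rose 2.16-fold, Irak2 4.08-fold and the inhibitory Irak3 4.14-fold, while Irak4 fell to 5.15 from 6.61 FPKM. In all, 16 of 21 tested genes of the pathway were called higher and 2 lower as deposited, with a median of 0.57. After rescaling to TPM 10 were higher and 7 lower (15.9% and 70.0% of all genes), with a median of 0.01.

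Other pattern receptors were mostly higher, 18 of 22 with 2 lower and a median of 1.18 as deposited. With TPM 12 were higher and 3 lower (median 0.60), and with quantile-normalized values 15 and 2 (median 0.48). Clec4e, the receptor Mincle for mycobacterial glycolipid, rose 64.8-fold to 268 FPKM, and the peptidoglycan sensors Nod1 and Nod2 rose 36-fold and 41.8-fold. Tlr2, the receptor for bacterial lipoproteins, was at 98.9, 102 and 104 FPKM untreated and 1116, 1089.7 and 1063 FPKM with LPS, 10.7-fold up. Tlr13, which senses bacterial ribosomal RNA, went the other way, from 118, 126 and 129 FPKM to 29.1, 35.7 and 30.9 FPKM, 3.90-fold lower.

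NF-kB subunits and the inhibitors of its output rose together, 24 of 27 with 3 lower and a median of 3.24. Among the subunits, Nfkb2 rose 11.7-fold, Rel 8.64-fold, Nfkb1 8.01-fold, Relb 6.44-fold and Rela 3.72-fold. Among the inhibitors the deubiquitinase Cyld had a log2 difference of 0.57 (0.043 with TPM, not called). Tnfaip3, which encodes A20, went from 6.45, 6.19 and 6.16 FPKM to 512, 493 and 501 FPKM, 80.1-fold. Nfkbia, which encodes IkB alpha, read 65.3, 64 and 65.4 FPKM untreated and 1023, 1028 and 1043 FPKM with LPS, and Nfkbiz rose 71.2-fold.

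RNA-binding proteins that destroy inflammatory messengers split within the list. Zfp36, tristetraprolin, rose 14.8-fold to 320.3 FPKM and Zc3h12a, the nuclease regnase-1, 12.9-fold. Zc3h12c, the paralog of Zc3h12a, rose as well (1.92 on the log2 scale). The paralogs of Zfp36 fell: Zfp36l2 read 120.3, 114 and 113 FPKM untreated and 13.1, 13.5 and 13.8 FPKM with LPS, 8.57-fold lower, and Zfp36l1 went from 22.7 to 9.52 FPKM. The third gene that fell was Tnfaip8l2, a restraint on TLR signalling, 1.76-fold lower.

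Immediate-early transcription factors, which respond within minutes, were mixed at 3 h. As deposited 15 of 27 were called higher and 8 lower (36.8% and 33.1% of all genes). After rescaling to TPM 11 were higher and 14 lower (15.9% and 70.0% of all genes), and the median turned from 0.33 to -0.30. Atf3 rose 6.43-fold to 291 FPKM and Junb 5.96-fold. Myc fell from 22.8, 25.2 and 22.9 FPKM to 1.30, 1.90 and 2.25 FPKM, 13-fold lower. Klf10 fell 6.13-fold and Fos went from 46.7 to 25.5 FPKM. Plk3, counted in the same list, was at 27.5, 25.2 and 23.7 FPKM untreated and 0.774, 0.847 and 0.843 FPKM with LPS.

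Feedback genes of the ERK pathway went in both directions, 7 of 16 higher and 8 lower, against 36.8% and 33.1% of all genes. TPM and quantile normalization gave the same counts for the list. The phosphatases Dusp2 and Dusp1 rose: Dusp2 read 0.711, 1.04 and 0.785 FPKM untreated and 263, 272 and 279.9 FPKM with LPS, 322-fold up, and Dusp1 7.57, 8.14 and 8.67 FPKM untreated and 158, 202 and 190.4 FPKM with LPS. Dusp16, which acts on JNK and p38, rose 11.2-fold, and the inhibitor Spred1 3.30-fold. Dusp6, Dusp7 and Dusp4 fell; Dusp4 was at 35, 34.7 and 32.8 FPKM untreated and 4.29, 5.16 and 3.71 FPKM with LPS and Dusp7 at 37.7, 40.9 and 35.9 FPKM untreated and 5.18, 5.01 and 4.58 FPKM with LPS, 7.79-fold and 7.75-fold lower. Etv5, a transcription factor induced by ERK, fell from 73.7, 74.6 and 73.5 FPKM to 16.4, 18 and 15.7 FPKM, and Spry2 fell 2.69-fold.

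Of 33 tested genes for the M-CSF receptor and the transcription factors of the lineage, 12 were higher and 17 lower, with a median of -0.75, against 10 and 23 with TPM (15.9% and 70.0% of all genes), where the median was -1.44. Csf1r, the receptor, read 436, 444 and 442 FPKM untreated and 415, 430.4 and 416 FPKM with LPS and did not pass (log2 difference -0.07 ± 0.04, adjusted p = 0.11), but was called lower after rescaling to TPM (-0.72) and quantile normalization (-0.99). Cebpa, a factor of myeloid commitment, fell from 181, 190.2 and 172 FPKM to 16.5, 21 and 18.7 FPKM, 9.65-fold. Hhex fell 19.8-fold, Tfeb, which drives lysosomal genes, 11.7-fold, and Id3 3.09-fold.

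The factors that rose included relatives of those that fell. Cebpb, the paralog of Cebpa that activates cytokine genes, read 67.6, 64.8 and 59.2 FPKM untreated and 199, 168 and 188 FPKM with LPS, 2.89-fold up. Mitf and Tfec, of the same family as Tfeb, rose 5.07-fold and 15.4-fold. Spi1, which encodes PU.1, rose 2.02-fold to 262 FPKM, Hif1a rose 2.80-fold and Bach1, a repressor of haem-responsive genes, 8.07-fold. In each of these genes the treated libraries lay above the untreated ones, where 74.0% of all tested genes had no overlap in either direction.

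**Figure D4:**
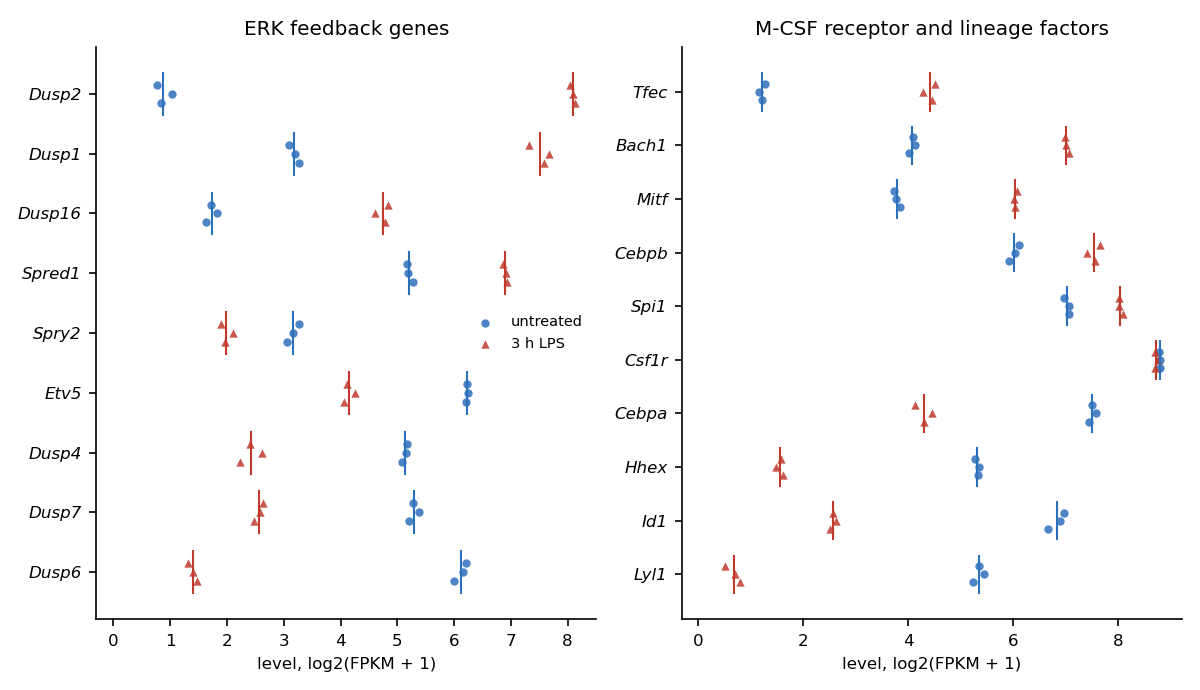
Level in each macrophage library, log2(FPKM + 1), of 9 ERK feedback genes (left) and of 10 genes of the M-CSF receptor and lineage list (right); blue circles are untreated, red triangles 3 h LPS, bars the group means. Dusp2 and Tfec at the top rose, Dusp6 and Lyl1 at the bottom fell, and Csf1r libraries of both groups lie together near 9.

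Surface receptors of resting macrophages were called higher in 19 of 46 cases and lower in 15 as deposited, shares near those of all tested genes (36.8% and 33.1%), and 7 higher and 29 lower with TPM (15.9% and 70.0% of all genes) and 11 and 27 with quantile normalization (26.9% and 45.8%). Receptors for positioning cues were among the lowest. Cxcr4 read 32.6, 32.2 and 30.5 FPKM untreated and 1.21, 1.56 and 1.02 FPKM with LPS. S1pr1, the receptor for sphingosine phosphate, read 63.3, 62.5 and 58.6 FPKM untreated and 4.71, 4.14 and 4.25 FPKM with LPS, 14.1-fold lower, Gpr183, the oxysterol receptor EBI2, fell 14.8-fold and Lpar6 39.4-fold. Cx3cr1, the fractalkine receptor, went from 139, 141 and 147 FPKM to 34.3, 42 and 37 FPKM, and Ccr1 fell 2.42-fold. The Fc receptor Fcgr1 and the scavenger receptor Msr1 rose, 3.57-fold and 3.23-fold. Of 9 tested purinergic and adenosine genes, 6 were called higher and 2 lower as deposited, and 3 and 4 with TPM. One of the lower pair, the ADP receptor P2ry12 (-0.18), lost the call without treated replicate 2 (adjusted p = 0.074), treated replicate 3 (0.11) or untreated replicate 2 (0.16). The ATP-gated channel P2rx7 fell 2.94-fold, and Adora2a, an inhibitory adenosine receptor, rose from 0.113, 0.0556 and 0.0440 FPKM to 22.4, 21.6 and 23.2 FPKM.

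**Figure D5:**
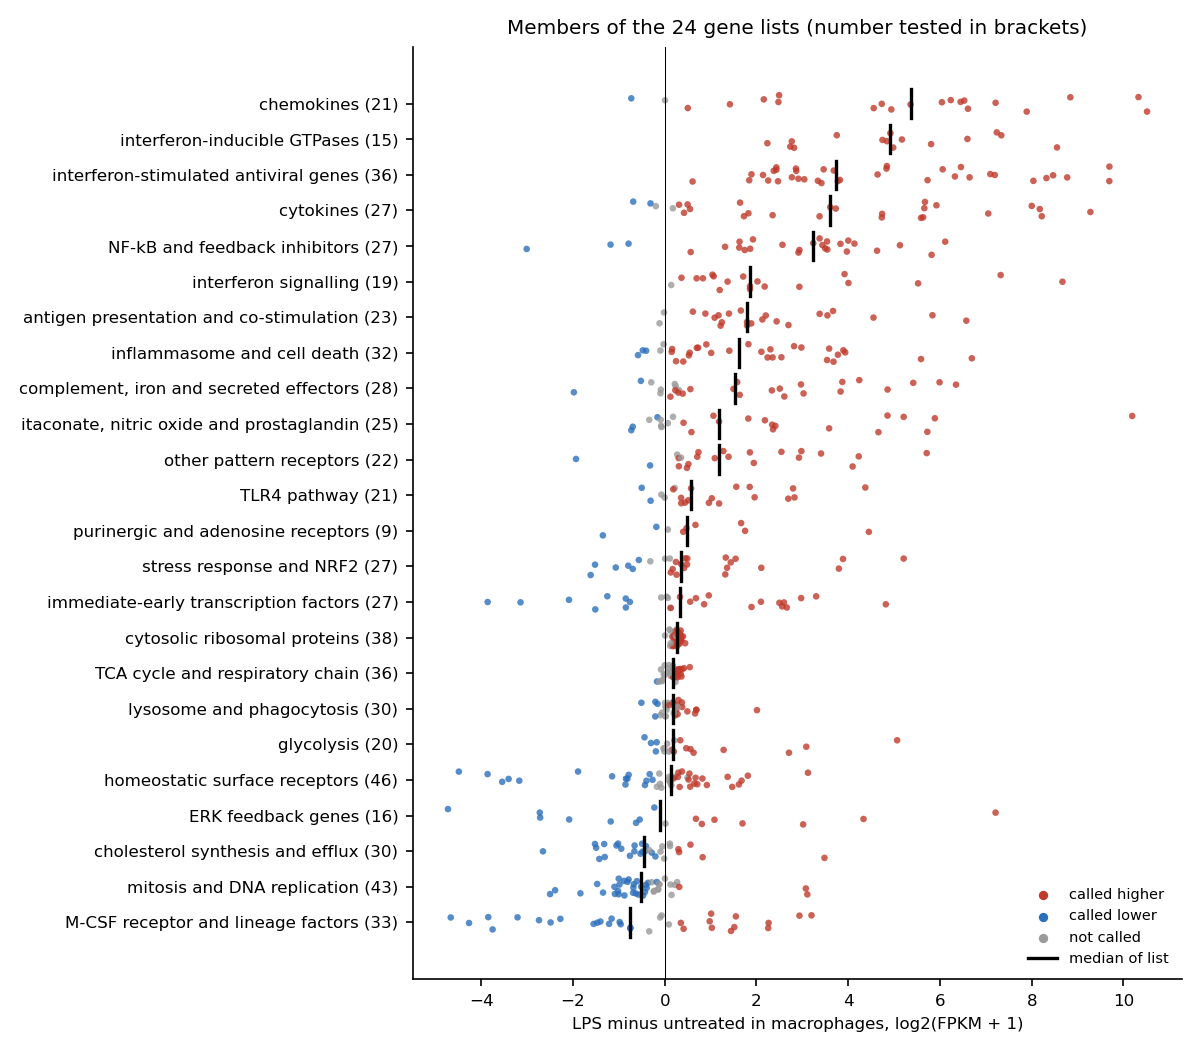
Difference of LPS minus untreated, log2(FPKM + 1), for each tested member of 24 gene lists, with the number tested in brackets; red points were called higher, blue called lower, grey not called, and black bars are medians. Medians run from 5.36 for chemokines to -0.75 for the M-CSF receptor and lineage list. After rescaling to TPM the medians of several lists change sign, among them ribosomal proteins, glycolysis, the TCA cycle and respiratory chain, and lysosome and phagocytosis.

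Antigen presentation and co-stimulation genes were called higher in 21 of 23 cases and lower in none as deposited, with a median of 1.80, and in 21 with 2 lower after rescaling to TPM. Cd274, the checkpoint ligand PD-L1, went from 2.64, 2.18 and 2.37 FPKM to 337, 297 and 334 FPKM, 135-fold, and Cd40 70.3-fold from 4.26 FPKM. Icam1, an adhesion molecule for T cells, read 29, 29.1 and 27.4 FPKM untreated and 688, 685 and 699 FPKM with LPS. On the class I side, the peptide transporter Tap1 rose 14.9-fold, H2-K1 2.38-fold and B2m, already at 1263 FPKM, 2.13-fold. Among class II genes, H2-Ab1 read 0.237, 0.598 and 0.466 FPKM untreated and 1.20, 1.31 and 1.04 FPKM with LPS, a called difference of 0.61, the invariant chain gene Cd74 read 5.69, 8.17 and 8.25 FPKM untreated and 18.7, 17.4 and 17 FPKM with LPS, a called difference of 1.17, and H2-Aa, H2-Eb1 and their activator Ciita did not reach the filter.

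Genes of the inflammasome and of cell death rose in 27 of 32 cases with 3 lower and a median of 1.62 as deposited, against 19 and 10 with TPM and 23 and 6 with quantile-normalized values. Nlrp3, a sensor that assembles the inflammasome, read 24.6, 21.4 and 20.9 FPKM untreated and 186, 185 and 177 FPKM with LPS, 8.17-fold up. Casp4, which encodes caspase-11, the intracellular LPS sensor of mice, rose 20.3-fold, Casp1 5.30-fold and the pore protein Gsdmd 2.74-fold. Survival genes in the same list went both ways. Bcl2a1d went from 1.70, 1.77 and 1.93 FPKM to 276, 287 and 304 FPKM and Birc3 rose 17-fold. Bcl2a1d has near-identical copies, which makes its own level uncertain. Bcl2 fell, to 0.983 from 1.97 FPKM, and so did Bcl2l1, which encodes BCL-XL (-0.48 on the log2 scale).

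Effector metabolism rose in 16 of 25 tested genes and fell in 3 as deposited, against 14 and 10 with TPM and 15 and 6 with quantile-normalized values. Nos2, the inducible nitric oxide synthase, had 1 read in all untreated libraries and reached 68.3, 47.6 and 61.3 FPKM. Ptgs2 and Ptges, which make prostaglandin E, rose 76.7-fold and 76.1-fold, whereas the constitutive Ptgs1 fell to 12.1 from 20.7 FPKM. Slc7a2, the arginine importer, rose 43-fold, Slc7a11, the cystine importer, 168-fold, Sod2 13.4-fold and the NADPH oxidase chain Cybb 5.37-fold. Hmox1, the haem oxygenase, fell from 565, 551 and 553 FPKM to 377, 326 and 328 FPKM.

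In glycolysis only single steps moved by a large amount. Slc2a6, a hexose transporter of the lysosome, read 4.47, 4.09 and 4.46 FPKM untreated and 191, 165 and 179 FPKM with LPS, Pfkfb3, which activates phosphofructokinase, rose 9.69-fold and Hk2, the first enzyme, 7.05-fold. Ldha read 108, 113 and 110.3 FPKM untreated and 103, 115 and 112 FPKM with LPS and did not pass (adjusted p = 0.91), but was called lower after rescaling to TPM (-0.65) and quantile normalization (-0.87). The list as a whole was called higher for 10 of 20 genes and lower for 4 as deposited (36.8% and 33.1% of all genes). After rescaling to TPM the counts were 4 and 13, near the shares of all genes (15.9% and 70.0%). With TPM the TCA cycle and respiratory chain were called higher for none of 36 and lower for 35, and with quantile normalization for 1 and 32. Of all genes 70.0% and 45.8% were lower under these scalings. As deposited, 20 of the list were called higher and 1 lower. The single lower call was the isocitrate dehydrogenase subunit Idh3a (-0.17), which lost it without treated replicate 1 (adjusted p = 0.11), treated replicate 3 (0.061), untreated replicate 2 (0.056) or untreated replicate 3 (0.11), in a fit of the macrophage groups only (0.052) and with no filter (0.055). Without treated osteoclast replicate 1 or 3 the list had 2 lower calls. No member of that list moved by 1 or more as deposited.

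Cholesterol synthesis and efflux genes were more often lower, 19 of 30 with 5 higher and a median of -0.46, against 33.1% of all genes lower. With TPM 27 were lower and with quantile normalization 25, where 70.0% and 45.8% of all genes were lower. Scd2, a fatty acid desaturase, fell from 35, 35.4 and 37.7 FPKM to 4.54, 4.89 and 5.25 FPKM, 7.37-fold, Lss 4.15-fold and Sqle 2.60-fold. Ch25h, which makes an antiviral oxysterol, rose, reading 51.4, 52.5 and 43.6 FPKM untreated and 591, 537 and 545 FPKM with LPS.

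Genes of mitosis and DNA replication were called lower in 28 of 43 cases and higher in 3, with a median of -0.51, against 33.1% of all genes lower. After rescaling to TPM and quantile normalization 39 and 34 were lower, where 70.0% and 45.8% of all genes were lower. E2f2 fell 15.3-fold and Cdt1, which licenses replication origins, 6.38-fold. Ccnd1, the cyclin D1 gene induced by M-CSF, fell from 162, 166 and 158 FPKM to 39.9, 51.8 and 42.7 FPKM. The genes that rose included the inhibitor Cdkn1a, from 87, 86.9 and 80.8 FPKM to 718, 726 and 724 FPKM, and Ccnd2, 10.3-fold. Without treated osteoclast replicate 2, which enters the shared estimate of the spread, 5 genes of the list were called higher.

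Cytosolic ribosomal proteins show the size of the scale effect: 31 of 38 were called higher and none lower as deposited, but none higher and all 38 lower after both rescaling to TPM and quantile normalization. Rps9, for example, read 156, 152 and 149.7 FPKM untreated and 206, 207 and 212 FPKM with LPS. Lysosomal and phagocytic genes behaved alike, 15 of 30 higher and 4 lower as deposited, against 1 and 23 with TPM and 1 and 26 with quantile normalization. Of all genes, 15.9% were higher and 70.0% lower with TPM, and 26.9% and 45.8% with quantile normalization. Stress and NRF2 genes were called higher in 18 of 27 cases and lower in 6 (36.8% and 33.1% of all genes), against 9 and 17 after rescaling to TPM. Within that list the eIF2 alpha phosphatase subunit Ppp1r15a rose 20.0-fold and the chaperone Hspa5 2.57-fold, while the glutathione enzyme Gclc fell 3.23-fold and Sesn2 5.27-fold.

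Secreted effectors, complement and iron genes rose in 20 of 28 cases and fell in 2 as deposited, against 15 higher and 11 lower under both TPM and quantile normalization. Tnfaip2 was at 28.3, 27.6 and 27.6 FPKM untreated and 1847, 1825 and 1828 FPKM with LPS, the collagenase Mmp13 rose 51.4-fold, complement C3 41.6-fold and the acute-phase gene Saa3 from 0.232 to 101 FPKM. Plau, the urokinase-type plasminogen activator, fell from 475, 518 and 484 FPKM to 117, 142 and 115 FPKM, 3.95-fold.

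Ranked by FPKM gained instead of by ratio, the 8 largest gains among called genes were Gm23935, Ccl4, Cxcl10, Ccl3, Fth1, Rsad2, Ccl7 and Ifit1. Fth1, the ferritin heavy chain that stores iron, went from 6352, 6966 and 6840.3 FPKM to 10250.3, 9698 and 9739 FPKM, a difference of 0.56 that was at 0 after quantile normalization and at -0.089 after rescaling to TPM, neither of them called. Gm23935, a short gene annotated as a microRNA, had means of 14142 and 19884 FPKM (log2 difference 0.50, adjusted p = 0.022). Its call was lost without treated replicate 1 (adjusted p = 0.072), treated replicate 3 (0.067) or untreated replicate 3 (0.096), and it was at -0.15 after rescaling to TPM.

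The 8 largest losses among called genes were Plau, Ctsd, Hmox1, Cebpa, BC005537, Cotl1, Ccnd1 and Id1. Ctsd, the lysosomal protease cathepsin D, read 1984, 2075 and 2024 FPKM untreated and 1697, 1819 and 1764 FPKM with LPS, a fall of only 1.15-fold. BC005537 fell 2.13-fold from 256 FPKM and Cotl1, an actin-binding protein, 1.32-fold from 507 FPKM.

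Of the long noncoding genes the highest were AW112010 (1.74, 1.71 and 0.816 FPKM untreated and 659, 549 and 612 FPKM with LPS), Mir155hg and Gm13822. Mir155hg, the host transcript of the inflammatory microRNA miR-155, went from 0.0301, 0.0594 and 0.251 FPKM to 56.2, 47.4 and 46.6 FPKM, with 11 reads untreated. Gm13822 had 1 read untreated and 200 with LPS, and it lies antisense to Oasl1, so its reads cannot be told apart from those of that gene. The lowest were F630028O10Rik, which the annotation marks as host of Mir223 and which read 35.1, 30.8 and 29.2 FPKM untreated and 1.45, 1.36 and 1.40 FPKM with LPS, then Gm14221 (-2.42) and Gm26532 (-1.92), as log2 differences.

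Among genes whose 95% interval stayed within -0.25 to 0.25, the most abundant were Ftl1, Psap, Lgmn, Lipa and Efhd2. Psap, the precursor of the saposins, read 1111, 1105 and 1088 FPKM untreated and 1131, 1086 and 1113 FPKM with LPS, and Ftl1, the ferritin light chain, 3627, 3859 and 3815 FPKM untreated and 3432, 3611 and 3546 FPKM with LPS. Lipa, the lysosomal acid lipase, was nevertheless called lower (-0.16) and Efhd2 higher (0.12), the latter not without treated replicate 2 (adjusted p = 0.072), treated replicate 3 (0.086) or untreated replicate 1 (0.12). All 5 were called lower after rescaling to TPM, so they are flat only on the deposited scale.

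Many raised genes lay next to each other in the genome. Among tested genes in genome order, 91 runs of at least 3 neighbours were each called and raised by at least 1, holding 364 of the 1365 genes (26.7%), whereas 9 such runs held 29 of the 718 lowered genes (4.04%). The longest, 17 genes on chromosome 1 from Aim2 to Ifi205, is the interferon-inducible DNA sensor cluster. Others were 12 genes on chromosome 11 from Irgm1 through Tgtp1 and Ifi47, 10 on chromosome 7 around Trim30a, 6 on chromosome 19 from Ifit2 to Ifit1 and 5 on chromosome 3 from Gbp5 to Gtf2b. Chemokine runs included Cxcl9, Cxcl10 and Cxcl11 on chromosome 5. Neighbouring paralogs share sequence, the classes differ in size, and no test was made.

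Starting level and gene span were also read by class. Genes raised by at least 3 had a median untreated level of 2.32 FPKM with 33.9% of them under 1 FPKM, against 5.53 FPKM and 10.9% over all tested genes and 7.34 FPKM for genes lowered by at least 1. Their median span in the genome was 14.5 kb, that of lowered genes 16.3 kb, that of genes raised by 1 to 3 25.2 kb and that of all tested genes 20.8 kb. The filter, which lets in genes that are low untreated when they rise, bears on the levels. The untreated level is also part of the difference that defines the classes. A fall of 1 on this scale cannot start from under 1 FPKM, so the levels by class are partly set by the choice.

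The macrophage response differed from that of osteoclasts for most genes: the difference of the LPS effects passed the test for 6413 of 11335 genes (56.6%). For the 277 genes raised by at least 3 the median effect was 4.02 in macrophages and 1.34 in osteoclasts, and the interaction was called below 0 for 276, although 245 of them also rose in osteoclasts. Since the 277 were picked in macrophages, the gap between the medians is partly set by that choice. Il1b rose by 9.28 in macrophages and 2.32 in osteoclasts (difference -6.96), Socs3 by 8.67 and 3.58, and Tnf by 4.73 and 4.03 (difference -0.71). For the 718 genes lowered by at least 1 the medians were -1.36 and -0.18, the interaction was called above 0 for 702, and 244 fell in osteoclasts too. Those genes were also picked in macrophages, so the gap of their medians is partly set by the choice. The same holds for the interaction counts of both classes, here and on the scales below. Dusp6 differed by 4.03 and Lyl1 by 4.04.

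The starting levels of some genes also differed between the cell types, and log2(FPKM + 1) compresses low values. Untreated Cxcl10, for example, averaged 2.69 FPKM in macrophages and 0.517 FPKM in osteoclasts. The part of the starting level was not tested by itself. With a pseudocount of 0.1 the interaction was called below 0 for 261 of the 277 raised genes and above 0 for 680 of the 718 lowered genes, and of the 23 genes above only Id1 lost its call (0.28, adjusted p = 0.28). On reads recovered from the FPKM steps (limma voom), where the ratio counts and not the level, the interaction was called below 0 for 222 of the 277 raised genes and above 0 for 2, and above 0 for 650 of the 718 lowered genes. By this last measure the calls of Cxcl10 (-2.04), Rsad2 (-1.49), Ccl4 (-1.58), Cmpk2 (-1.52) and Rab3il1 (0.47) were lost and Id1 turned from 2.70 to -1.33 (adjusted p = 0.23), whereas those of Il1b (-4.29), Socs3 (-3.25), Ccl5 (-4.91) and Dusp6 (4.62) remained.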

How the data were processed

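RNA from 12 libraries was sequenced, and the deposited file is a table of FPKM values for 54532 genes made by the authors. The submitters' processing notes name fastp, STAR, featureCounts and DESeq2 and the build mm10, with no versions, and do not say whether counting used strand. In the values, the FPKM denominators departed by at most 0.000644% from a median-ratio size factor times the geometric mean total, so a few strong genes do not lower the rest. With exon lengths of the GENCODE M21 annotation (GRCm38), which matched 96.7% of genes, whole reads (within 0.02) were recovered for 25818 of 25854 genes above 0 (99.9%), which gave between 15651951 and 20281567 assigned reads per library. No 2 macrophage replicates agreed within sampling noise (the chi-square ran from 3.21 to 5.90 times its degrees of freedom).

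Genes that reached 1 FPKM in 3 or more of the 12 libraries were tested with limma 3.58.1 in R 4.3.3 on log2(FPKM + 1), in 1 fit of 4 group means with a variance trend, two-sided, with Benjamini-Hochberg adjustment over 11335 genes and a threshold of 0.05. The procedure was tested on simulated data. The members and gene lists were chosen with earlier results of these data known, and lists are described by counts and medians without a test. Genes named are the 12 highest and 12 lowest called differences where the macrophage mean was 1 FPKM or more and the groups had no overlap, the 8 largest called gains and losses in FPKM, the 3 highest and lowest long noncoding genes, the 5 most abundant genes with a 95% interval within -0.25 to 0.25, and list or marker genes chosen after their values were seen. Some results chosen by these rules are not reported here. Folds are ratios of mean FPKM, and where a group had 0 reads its level was set to 3 reads per library. Promoters come from RefSeq (GRCm38.p6). In all, 21 alternatives were tried, among them another pseudocount, filter and scaling, limma voom on the recovered reads, a replicate block and leaving out each library.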

Additional observations from a re-analysis of the deposited data

Results flagged for a closer look

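The effect of LPS differed between the cell types by the interaction term of the same limma fit for 6413 of 11335 genes, and for 23 genes among those with the highest and lowest differences in macrophages, which were picked for a large effect there. Given as the log2 effect in osteoclasts minus that in macrophages, the values for raised genes were -4.28 for Ccl5, -3.21 for Cxcl10, -3.24 for Acod1, -3.40 for Ifit1, -3.28 for Rsad2, -6.96 for Il1b, -2.65 for Ccl4, -3.28 for Cmpk2, -5.09 for Socs3, -4.51 for Gbp5, -3.26 for Ifit2 and -3.74 for Oasl1. Negative values mean a smaller rise in osteoclasts. For lowered genes they were 4.03 for Dusp6, 4.04 for Lyl1, 3.19 for Cd300lb, 2.70 for Id1, 2.89 for Lhfpl2, 3.51 for Irf2bp2, 3.62 for 1700017B05Rik, 2.60 for Cxcr4, 3.73 for Plk3, 2.69 for Rab3il1 and 2.77 for F630028O10Rik, where positive values mean a smaller fall in osteoclasts. The part of the lower starting level of some of these genes in osteoclasts was not tested by itself. With limma voom on recovered reads the calls of Cxcl10, Rsad2, Ccl4, Cmpk2, Id1 and Rab3il1 were lost, and with a pseudocount of 0.1 that of Id1 (0.28, adjusted p = 0.28), while TPM and quantile normalization kept all 6.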

How the results depend on the processing

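Leaving out each of the 12 libraries in turn gave between 7500 and 8012 called genes, 1354 to 1392 raised and 704 to 735 lowered by at least 1, and 6049 to 6345 called differences between cell types. All of these counts stayed within 1.5 times the main count. Requiring a mean of at least 5 FPKM, which tests fewer genes, left 4851 called, 1735 lower, 336 lowered by at least 1 and 4018 differences between cell types. Rescaling to TPM called 1797 higher and 7933 lower, with 2808 lowered by at least 1. The number lowered by at least 1 was 1338 with a pseudocount of 0.1 and 1399 with limma voom on recovered reads, both of which compress low levels less. With the replicate number as a block 7914 genes were called. Deviations from the group mean correlated at 0.104, 0.0967 and -0.0529 between same-numbered macrophage libraries, and at -0.137 to 0.0476 between differently numbered ones. With 3 libraries a group these values cannot decide whether the numbers pair samples, and no label says so. Of the named genes P2ry12 lost its call under the block (adjusted p = 0.052). Values that changed sign were, with TPM, those of Gm23935 (-0.15), Fth1 (-0.089), Psap (-0.64), Lgmn (-0.58), Efhd2 (-0.53), Ccl6 (-0.64), Pf4 (-0.15), Rps9 (-0.20) and Lyz2 (-0.45), and, with quantile normalization, those of Psap (-1.08), Lgmn (-0.93), Efhd2 (-0.77), Ccl6 (-0.64), Pf4 (-0.56) and Rps9 (-0.41). The difference between cell types for Id1 changed sign with limma voom (-1.33). The cause was not tested. Among values of single genes, 2579 kept their side of the threshold when a library was left out and 13 lost the call, those of Gm23935, Efhd2, Idh3a and P2ry12, while under the other alternatives 1870 kept it, 16 lost it, 7 gained it and 16 changed sign. Of the counts and medians of the gene lists under those alternatives 502 held and 146 moved, 49 of them with TPM and 41 with quantile normalization.

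The groups hold 3 libraries each at 1 time point and 1 dose. The annotation behind the recovered reads was matched by gene length, and whether counting used strand is not given in the sources used here, so overlapping genes stay uncertain. Reads of near-identical family members cannot be told apart. Total RNA per cell was not measured, so the scale that sets no change for the typical gene cannot be checked against the TPM or quantile scale. Genes with only a few untreated reads have imprecise folds, and counting error limits them even where the 3 libraries are close.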
